A study of Danio rerio with 8 samples.

Results

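Complexes III, IV and V of the mitochondrial respiratory chain were followed through 47 nuclear genes, chosen by symbol from a table of 31388 gene identifiers. A gene was taken when its symbol, in either case, began with uqcr, atp5, cox4, cox5, cox6, cox7 or cox8, or was cyc1. This gave 9 genes of complex III, 18 of complex IV and 20 of complex V, and all 47 passed the filter on low values. Complex III (ubiquinol-cytochrome c reductase) passes electrons from ubiquinol to cytochrome c, complex IV (cytochrome c oxidase) passes them on to oxygen, and both pump protons across the inner mitochondrial membrane. Complex V (ATP synthase) lets the protons flow back and makes ATP. Each complex joins subunits encoded in the nucleus with a few encoded in mitochondrial DNA, and several subunits of complex IV have tissue isoforms in mammals. Heart muscle cells are packed with mitochondria and are known for high levels of these genes.

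Gene expression was measured by RNA sequencing of cells sorted from the ventricles of adult zebrafish aged 3 to 9 months, which carry the reporter transgene Tg(-6.8wt1a:EGFP) and received no treatment. In that line a fragment upstream of wt1a, a transcription factor gene of the epicardium (the outer layer of the heart), drives green fluorescent protein (GFP). Every animal used carried the reporter, and the labels name no other allele. The labels give 4 numbered pools of 3 to 5 hearts, each sorted into a GFP-positive and a GFP-negative library, which makes 4 libraries per sort and 8 altogether. Values are TPM, which divide each gene's reads by its transcript length and give every library an equal total, so that levels of different genes can be compared within a library. They hold no read counts, so depth is unknown and no counting error could be given.

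The reporter's own gene did not follow the labels. wt1a (listed as WT1, ENSDARG00000031420) stood at 1.15, 2.59, 71.3 and 39.5 TPM in pools 1 to 4 of the GFP-positive label, against 2.42, 1.42, 107 and 44.3 TPM in pools 1 to 4 of the GFP-negative label. It followed the pool number and not the labelled sort, so "GFP-positive" and "GFP-negative" stand here for what the label says. The 4 libraries of pools 1 and 2 and the 4 libraries of pools 3 and 4 are set side by side below. This division was seen in these same data, so the joint difference between them is a description without a p-value. Tests among pools used the 4 pool labels and not this division, with the labelled sort as a further term. They took their spread from the GFP-positive and GFP-negative libraries of each pool, which by the labels came from the same hearts. Their p-values therefore say nothing of how much separate sets of hearts vary.

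Most genes of complexes III, IV and V had higher levels in pools 1 and 2 than in pools 3 and 4, whichever the labelled sort. Over the 47 genes, the mean level per gene ran from 1.93 to 556 TPM with a median of 131 TPM in pools 1 and 2, and from 1.79 to 347 TPM with a median of 53.3 TPM in pools 3 and 4. In the TPM as deposited, 32 of 47 genes lay higher in all 4 libraries of pools 1 and 2 than in any library of pools 3 and 4 (background over all 13877 genes tested, 6.26%). The opposite held for 2 genes, COX4I2 and one of 2 genes listed as COX5B (background 33.4%), and 13 overlapped. The F test among the 4 pools in limma (Benjamini-Hochberg adjusted p under 0.05 over all genes tested) called 40 of 47 genes, against a background of 12.9%. Pools 1 and 2 held the 2 highest pool means for 39 of the called genes (background 7.85%) and pools 3 and 4 for 1, COX4I2 (background 4.55%). Genes with the highest and lowest levels are set out by complex below, and the plot of TPM by library shows every value.

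**Figure D1:**
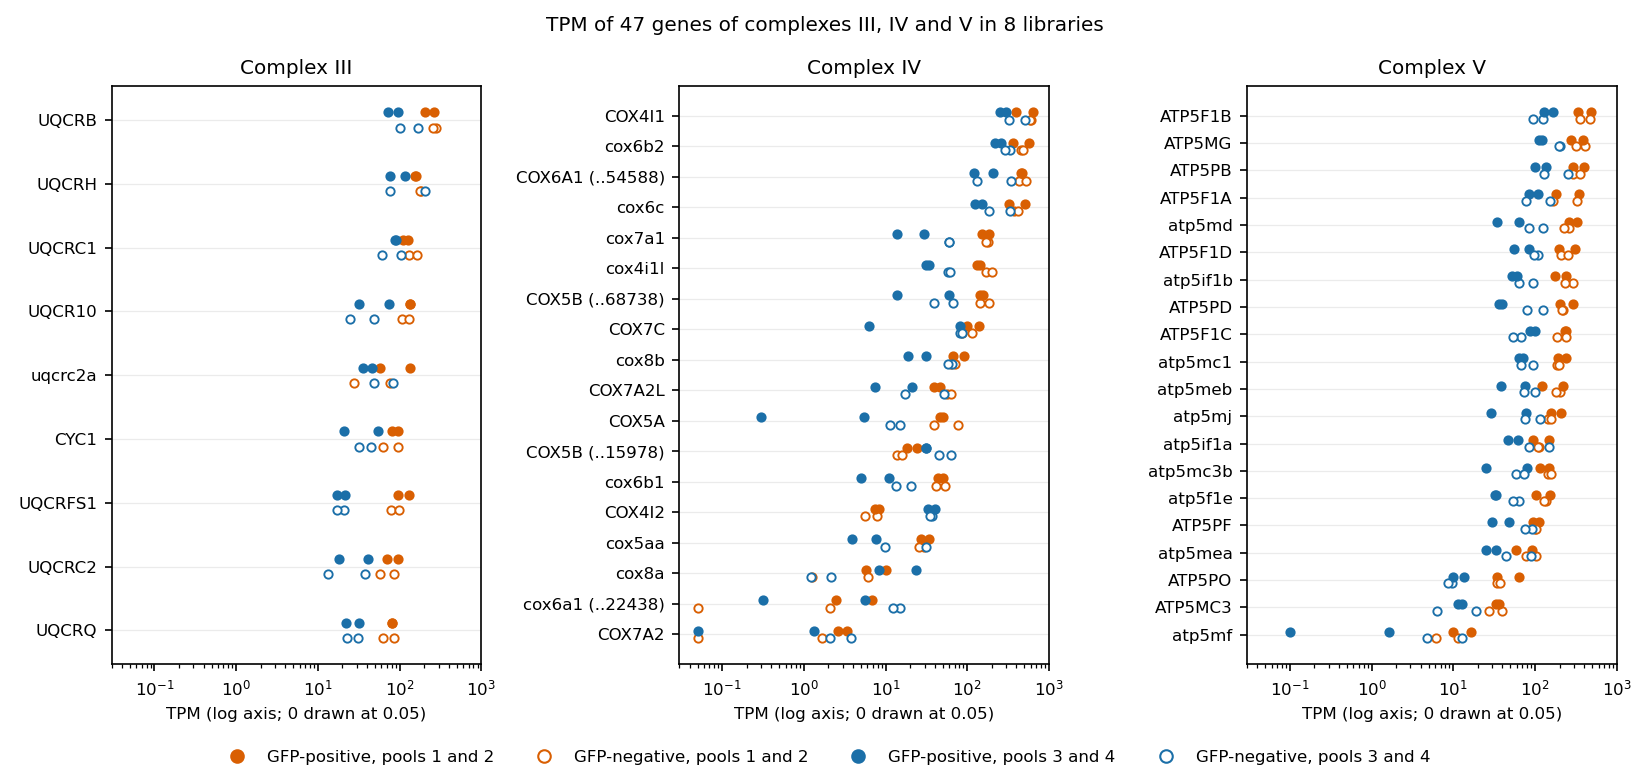
TPM (log axis, 0 drawn at 0.05) of the 47 genes in each of 8 libraries, 1 panel per complex, genes ordered by mean level; filled points are GFP-positive and open points GFP-negative libraries, orange for pools 1 and 2 and blue for pools 3 and 4, and digits in brackets end the identifier of a symbol listed more than once. Orange points lie right of blue ones for most genes, and left of them for COX4I2 and 1 COX5B gene.

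The size of the difference depended on how libraries were scaled, and its direction for the group did not. TPM as deposited put the median of all genes tested at a log2 difference, pools 1 and 2 minus pools 3 and 4, of -0.80. The scaled values used for tests put it at 0.03. The median over the 47 genes was 2.40 after scaling and 1.34 as deposited, which lay 2.38 and 2.15 above the median of all genes. All log2 differences between pools below are on the scale of log2(scaled TPM + 1), which understates the change of low genes. With the TPM as deposited the F test called 30 of 47 genes (background 28.9%), 29 of them highest in pools 1 and 2 (background 4.68%) and 1 in pools 3 and 4 (background 22.6%).

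Markers of several cell types differed among the pools as well, from lists of known genes. Over all genes tested, the F test called 12.9%, with 7.85% highest in pools 1 and 2 and 4.55% highest in pools 3 and 4. The counts in each list are read against these backgrounds. Of 23 cardiomyocyte markers tested, 21 were called, all highest in pools 1 and 2, with a median log2 difference of 3.71. Their summed level was 29050.4 to 40685 TPM across pools 1 and 2, against 2554 to 6268 TPM across pools 3 and 4. Of the 26 genes listed, 23 were above 0 in every library of pools 1 and 2 and 21 in every library of pools 3 and 4, with 0 in at least 1 library for 1 of 2 identifiers each of TNNT2 and TNNI1 and for myl4, ckmb and CSRP3. The myosin light chain gene MYL7 stood at 7632 to 9803 TPM across pools 1 and 2, against 466 to 1284 TPM across pools 3 and 4. As a ratio to the summed cardiomyocyte markers, the genes of complexes III, IV and V came to 0.214 to 0.227 across pools 1 and 2, against 0.674 to 1.06 across pools 3 and 4, without overlap. Fibroblast and matrix markers went the other way, with 15 of 16 called markers highest in pools 3 and 4 among 17 tested, and a summed level of 379 to 722 TPM across pools 1 and 2, against 7934 to 15721 TPM across pools 3 and 4. Endothelial and endocardial markers summed to 369 to 652 TPM across pools 1 and 2, against 91.5 to 157 TPM across pools 3 and 4, with 11 of 15 called, all highest in pools 1 and 2. Erythrocyte markers summed to 713 to 1786 TPM across pools 1 and 2, against 13.9 to 43 TPM across pools 3 and 4, with 5 of 7 called, all highest in pools 1 and 2. Macrophage markers summed to 207 to 339 TPM across pools 1 and 2, against 139 to 279 TPM across pools 3 and 4, and overlapped. Of 13 tested, 3 were called (background 12.9%), all highest in pools 1 and 2 (background 7.85%). Of 3 identifiers of MPEG1, a defining marker, 2 were at 0 in some libraries. Epicardium markers summed to 1231 to 2174 TPM across pools 1 and 2, against 2238 to 4424 TPM across pools 3 and 4. Of 9 tested, 7 were called, 2 highest in pools 1 and 2 and 5 in pools 3 and 4. The log2 differences of the 9 ran both ways, from -4.37 to 4.74. After scaling, 3 lay higher without overlap in pools 1 and 2 (background 14.5%) and 5 in pools 3 and 4 (background 12.1%). WT1, wt1b and TCF21 are among those higher in pools 3 and 4. WT1 stood at 1.15 to 2.59 TPM across pools 1 and 2, against 39.5 to 107 TPM across pools 3 and 4. The values were 3.44 to 6.78 against 48.3 to 60 TPM for wt1b, and 1.08 to 3.43 against 84.3 to 212 TPM for TCF21. The part of these cell types in the respiratory gene differences was not tested. In sorted bulk samples, fewer cells of a type and less RNA per cell cannot be told apart.

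The contrasts between single pools followed the same division. limma called 38 genes higher in pool 1 than in pool 3 (background 7.83%), 36 higher in pool 1 than in pool 4 (6.69%), 39 higher in pool 2 than in pool 3 (8.55%) and 35 higher in pool 2 than in pool 4 (7.63%). In the other direction it called 0 genes lower in pool 1 than in pool 3 (background 4.64%), 0 lower in pool 1 than in pool 4 (4.16%), 0 lower in pool 2 than in pool 3 (5.18%) and 1, COX4I2, lower in pool 2 than in pool 4 (4.84%). All 4 contrasts were called for 34 genes (background 7.65%). Between pools 1 and 2 limma called 0 of the genes (background 0%), and 0 passed without adjustment (unadjusted p under 0.05, background 2.70%). Between pools 3 and 4 it also called 0, and 7 passed without adjustment (background 8.55%).

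All 9 genes of complex III had higher means in pools 1 and 2. The F test called 8 (background 12.9%), each highest in pools 1 and 2 (background 7.85%), and the median log2 difference was 2.32. The Rieske iron-sulfur protein gene UQCRFS1 (ENSDARG00000007745), whose product takes electrons from ubiquinol, had 96.2 and 131 TPM in the GFP-positive and 78.4 and 97.2 TPM in the GFP-negative libraries of pools 1 and 2, against 17.1 and 21.3 TPM in the GFP-positive and 21.1 and 17.2 TPM in the GFP-negative libraries of pools 3 and 4. The groups of libraries were far apart in both sorts, and its log2 difference of 3.36 (limma F adjusted p = 0.000894) was the largest in the complex. CYC1 (ENSDARG00000038075), encoding cytochrome c1, which hands the electrons to cytochrome c, had 81.8 and 96.3 TPM in the GFP-positive and 62.5 and 96.3 TPM in the GFP-negative libraries of pools 1 and 2, against 54 and 20.6 TPM in the GFP-positive and 45.2 and 32.3 TPM in the GFP-negative libraries of pools 3 and 4. Its libraries did not overlap between the pairs of pools either, at a log2 difference of 2.25 (limma F adjusted p = 0.00392).

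The remaining complex III genes differed less evenly. UQCR10 (ENSDARG00000104517), a small accessory subunit, stood at 106 to 136 TPM across pools 1 and 2, against 24.7 to 73.5 TPM across pools 3 and 4 (log2 difference 2.65; limma F adjusted p = 0.00502). UQCRB (ENSDARG00000011146), the most abundant member of the complex and a subunit near the ubiquinone site, stood at 205 to 278 TPM across pools 1 and 2, against 71.6 to 169.97 TPM across pools 3 and 4 (log2 difference 2.32; limma F adjusted p = 0.0032). UQCRC1 (ENSDARG00000052304), a core protein of the matrix side, stood at 111 to 162 TPM across pools 1 and 2, against 60.6 to 103 TPM across pools 3 and 4, a log2 difference of 1.71 (limma F adjusted p = 0.0055). UQCRC1 lost its call on the TPM as deposited (adjusted p = 0.158), and adjusted p ran from 0.00283 to 0.158 over 19 alternatives. UQCRH (ENSDARG00000059128), the hinge protein that helps cytochrome c dock, overlapped in TPM, with 206 TPM in the GFP-negative library of pool 3 and at most 183 TPM in pools 1 and 2. Its log2 difference was 1.68 (limma F adjusted p = 0.0301). UQCRH lost its call on the TPM as deposited (adjusted p = 0.372), with no filter on low values (adjusted p = 0.127) and without pool 1 or the GFP-positive library of pool 1 or 2 or the GFP-negative library of pool 1, 2 or 4 (adjusted p = 0.0567 to 0.103), and adjusted p ran from 0.0105 to 0.372 over 19 alternatives.

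The core protein pair UQCRC2 (ENSDARG00000071691) and uqcrc2a (ENSDARG00000014794) gave different results. UQCRC2 stood at 57.6 to 97 TPM across pools 1 and 2, against 13.3 to 41 TPM across pools 3 and 4, with no overlap (log2 difference 2.63; limma F adjusted p = 0.00102). uqcrc2a stood at 27.5 to 133 TPM across pools 1 and 2, against 35.8 to 82.4 TPM across pools 3 and 4, overlapped, and was the gene of complex III that missed the threshold (log2 difference 1.37; limma F adjusted p = 0.0603). uqcrc2a was called with a filter of 5 TPM (adjusted p = 0.047) and with no term for the labelled sort (adjusted p = 0.0446). It was also called without pool 1 or 4 or the GFP-positive library of pool 4 or the GFP-negative library of pool 4 (adjusted p = 0.0234 to 0.0435). Adjusted p ran from 0.0234 to 0.24 over 19 alternatives. The share of uqcrc2a in the TPM of the pair was 32.3% to 57.8% across pools 1 and 2, against 46.6% to 86.1% across pools 3 and 4, so that the pairs of pools overlapped. UQCRQ (ENSDARG00000029064), another small subunit, stood at 62.2 to 84.6 TPM across pools 1 and 2, against 22.3 to 32.1 TPM across pools 3 and 4 (limma F adjusted p = 0.00164).

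Complex IV had the widest range of differences of the 3. Of 18 genes, 13 were called by the F test (background 12.9%). Of these, 12 were highest in pools 1 and 2 (background 7.85%) and 1 in pools 3 and 4 (background 4.55%). The median log2 difference was 2.25. Single genes ran from -1.18 to 4.01, against 1.37 to 3.36 in complex III and 1.63 to 2.99 in complex V. The 5 lowest differences were those of COX4I2, cox6a1 (ENSDARG00000022438), the COX5B gene ENSDARG00000015978, COX7A2 and cox8a, and each of these has a relative in its family with a higher mean TPM over the 8 libraries.

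Subunit 4 is the largest nuclear subunit, and 3 genes of its family were listed. COX4I1 (ENSDARG00000032970), the isoform found in most mammalian tissues, was the most abundant of the 47 genes, with 395 and 634 TPM in the GFP-positive and 609 and 586 TPM in the GFP-negative libraries of pools 1 and 2, against 255 and 298 TPM in the GFP-positive and 507 and 327 TPM in the GFP-negative libraries of pools 3 and 4. The GFP-negative library of pool 3 lay above the GFP-positive library of pool 1, so the pairs of pools overlapped in TPM. Its log2 difference was 1.78 (limma F adjusted p = 0.00734). COX4I1 lost its call on the TPM as deposited (adjusted p = 0.127), and adjusted p ran from 0.0051 to 0.127 over 19 alternatives. cox4i1l (ENSDARG00000012388), a related gene, had 133 and 142 TPM in the GFP-positive and 171 and 198 TPM in the GFP-negative libraries of pools 1 and 2, against 31.4 and 33.6 TPM in the GFP-positive and 57.7 and 62.4 TPM in the GFP-negative libraries of pools 3 and 4. It did not overlap between the pairs of pools and had a log2 difference of 2.89 (limma F adjusted p = 0.00102).

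COX4I2 (ENSDARG00000022509), the isoform known from mammalian lung and from cells at low oxygen, went the other way. It had 8.29 and 7.49 TPM in the GFP-positive and 7.8 and 5.62 TPM in the GFP-negative libraries of pools 1 and 2, against 33.2 and 40.9 TPM in the GFP-positive and 37.3 and 35.4 TPM in the GFP-negative libraries of pools 3 and 4. All 4 libraries of pools 3 and 4 lay above all 4 of pools 1 and 2, both in TPM and after scaling. The log2 difference was -1.18 after scaling (limma F adjusted p = 0.035) and -2.19 as deposited (limma F adjusted p = 0.0037). COX4I2 lost its call with no filter on low values (adjusted p = 0.0642) and without pool 1, 2 or 4 or the GFP-positive library of pool 1, 2, 3 or 4 or the GFP-negative library of pool 1, 2, 3 or 4 (adjusted p = 0.0502 to 0.183), and adjusted p ran from 0.0037 to 0.183 over 19 alternatives. Within the family, COX4I2 took 1.55% and 0.956% of the TPM in the GFP-positive and 0.991% and 0.711% in the GFP-negative libraries of pools 1 and 2. In pools 3 and 4 it took 10.4% and 11% in the GFP-positive and 6.19% and 8.33% in the GFP-negative libraries. The share of cox4i1l was 18.1% to 25.1% across pools 1 and 2, against 9.02% to 14.7% across pools 3 and 4, without overlap. That of COX4I1 was 73.6% to 80.9% across pools 1 and 2, against 77% to 84.2% across pools 3 and 4, and overlapped. Such shares do not depend on how libraries are scaled.

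Of the 2 genes listed as COX5B, a zinc-binding subunit of the matrix side, 1 also took a larger share of its family in pools 3 and 4. ENSDARG00000068738 had 156 and 144 TPM in the GFP-positive and 144 and 182 TPM in the GFP-negative libraries of pools 1 and 2, against 13.6 and 60.5 TPM in the GFP-positive and 39.8 and 67.3 TPM in the GFP-negative libraries of pools 3 and 4. It did not overlap between the pairs of pools (log2 difference 3.03; limma F adjusted p = 0.00149). ENSDARG00000015978, listed under the same symbol, had 24.5 and 18.4 TPM in the GFP-positive and 13.7 and 16.1 TPM in the GFP-negative libraries of pools 1 and 2, against 31.4 and 31.6 TPM in the GFP-positive and 63 and 45.5 TPM in the GFP-negative libraries of pools 3 and 4. In TPM it lay higher in every library of pools 3 and 4, but after scaling the libraries overlapped, and it was not called (log2 difference -0.13; limma F adjusted p = 0.867). The share of ENSDARG00000015978 in the TPM of the pair was 8.09% to 13.5% across pools 1 and 2, against 34.3% to 69.7% across pools 3 and 4. The 2 libraries of pool 3 had the highest shares, 69.7% in the GFP-positive and 61.3% in the GFP-negative library. The mean share differed by -41 percentage points between pools 1 and 2 and pools 3 and 4. The difference was -26.9 percentage points without pool 3 and -55.1 percentage points without pool 4. Reads of near-identical copies can be split between them, so single values in this and the other paralog families are uncertain.

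**Figure D2:**
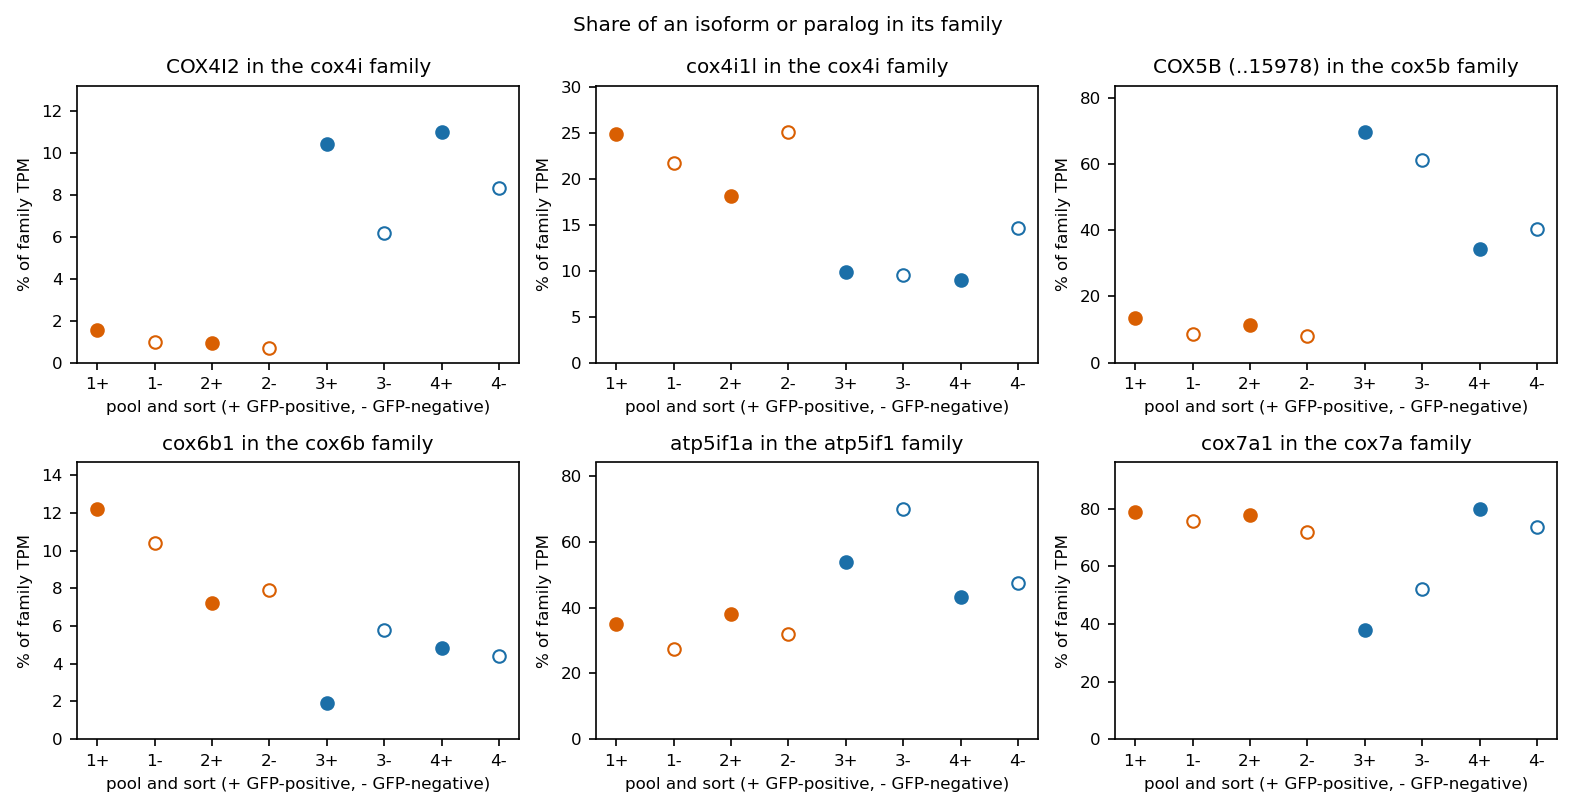
Share of 6 genes in the summed TPM of their own family (%), by pool and labelled sort; filled points are GFP-positive and open points GFP-negative libraries, orange for pools 1 and 2 and blue for pools 3 and 4. COX4I2 took 0.711% to 1.55% across pools 1 and 2, against 6.19% to 11% across pools 3 and 4, with no overlap, while the shares of cox7a1 overlapped.

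The families with heart and liver isoforms in mammals differed in how far 1 gene led them. COX6A1 (ENSDARG00000054588) held 91.5% or more of the cox6a TPM in every library, with 436 to 530.03 TPM across pools 1 and 2, against 122 to 342 TPM across pools 3 and 4 (log2 difference 2.42; limma F adjusted p = 0.00785). COX6A1 lost its call on the TPM as deposited (adjusted p = 0.0639) and with no filter on low values (adjusted p = 0.0565), and adjusted p ran from 0.0028 to 0.0639 over 19 alternatives. The other gene of that symbol, ENSDARG00000022438, had 0 to 6.75 TPM across pools 1 and 2, against 0.32 to 15.1 TPM across pools 3 and 4 and was listed at 0 in the GFP-negative library of pool 1 (limma F adjusted p = 0.748). cox7a1 (ENSDARG00000069464), the heart and muscle isoform in mammals, had 185 and 150.4 TPM in the GFP-positive and 177 and 168 TPM in the GFP-negative libraries of pools 1 and 2, against 13.8 and 29.98 TPM in the GFP-positive and 60.01 and 59.3 TPM in the GFP-negative libraries of pools 3 and 4. All values in pools 3 and 4 lay below all values in pools 1 and 2, and the log2 difference was 3.30 (limma F adjusted p = 0.00316). COX7A2L (ENSDARG00000054907), whose product helps join complexes III and IV into supercomplexes, stood at 39.4 to 64 TPM across pools 1 and 2, against 7.46 to 52.6 TPM across pools 3 and 4 (limma F adjusted p = 0.00286). COX7A2 (ENSDARG00000053217), the isoform of most mammalian tissues, stayed at or below 3.73 TPM in all 8 libraries. The share of cox7a1 in its family was 71.8% to 78.9% across pools 1 and 2, against 38% to 80.1% across pools 3 and 4; the lowest shares, 38% and 52.3%, were those of the GFP-positive and the GFP-negative library of pool 3. In that GFP-positive library COX7A2L held 58.3% and led the family, and cox7a1 led it in the other 7 libraries.

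Of the subunit 6b genes, cox6b2 (ENSDARG00000037860), a testis isoform in mammals, was the abundant one in these heart cells, with 359.5 to 564 TPM across pools 1 and 2, against 219 to 331 TPM across pools 3 and 4 (log2 difference 1.84; limma F adjusted p = 0.00404). cox6b2 lost its call on the TPM as deposited (adjusted p = 0.0551), and adjusted p ran from 0.00196 to 0.0551 over 19 alternatives. cox6b1 (ENSDARG00000045230) had 41.4 to 53.4 TPM across pools 1 and 2, against 5.01 to 20.3 TPM across pools 3 and 4 (log2 difference 2.98; limma F adjusted p = 0.00426). The share of cox6b1 in the family was 7.21% to 12.2% across pools 1 and 2, against 1.92% to 5.78% across pools 3 and 4, without overlap. cox8b (ENSDARG00000097209), a heart and muscle isoform in many mammals, overlapped at 63.2 to 91.8 TPM across pools 1 and 2, against 19 to 65.7 TPM across pools 3 and 4 (limma F adjusted p = 0.034). cox8b lost its call on the TPM as deposited (adjusted p = 0.24), with no filter on low values (adjusted p = 0.141), with a pseudocount of 0.1 (adjusted p = 0.0567) and without pool 1 or 3 or the GFP-positive library of pool 1, 2, 3 or 4 or the GFP-negative library of pool 1 or 4 (adjusted p = 0.0511 to 0.0873), and adjusted p ran from 0.0232 to 0.24 over 19 alternatives. Its partner cox8a (ENSDARG00000095273) was low, at 1.27 to 10.2 TPM across pools 1 and 2, against 1.23 to 23.5 TPM across pools 3 and 4 (limma F adjusted p = 0.615).

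COX5A (ENSDARG00000099663), the other subunit of the matrix side, showed the largest difference of all 47 genes. It had 46.6 and 50.1 TPM in the GFP-positive and 39.7 and 76.5 TPM in the GFP-negative libraries of pools 1 and 2, against 5.42 and 0.3 TPM in the GFP-positive and 15 and 11.2 TPM in the GFP-negative libraries of pools 3 and 4. The GFP-positive library of pool 4 held almost none, and the log2 difference was 4.01 (limma F adjusted p = 0.00838). COX5A lost its call with no filter on low values (adjusted p = 0.0616), and adjusted p ran from 0.00143 to 0.0616 over 19 alternatives. Its paralog cox5aa (ENSDARG00000088383) overlapped, at 25.9 to 33.9 TPM across pools 1 and 2, against 3.91 to 31.6 TPM across pools 3 and 4 (log2 difference 2.43; limma F adjusted p = 0.0486). cox5aa lost its call on the TPM as deposited (adjusted p = 0.18), with no filter on low values (adjusted p = 0.18), with a pseudocount of 0.1 (adjusted p = 0.0881) and without pool 1, 2 or 4 or the GFP-positive library of pool 1, 2 or 4 or the GFP-negative library of pool 1 or 4 (adjusted p = 0.0582 to 0.144), and adjusted p ran from 0.00721 to 0.18 over 19 alternatives. COX7C (ENSDARG00000104537), a small membrane subunit, had 98.1 and 139.7 TPM in the GFP-positive and 87.2 and 115 TPM in the GFP-negative libraries of pools 1 and 2, against 82.5 and 6.31 TPM in the GFP-positive and 81.6 and 87.1 TPM in the GFP-negative libraries of pools 3 and 4. Here the GFP-positive library of pool 4 alone lay far below the rest, and the gene was not called (log2 difference 2.31; limma F adjusted p = 0.143). COX7C was called without pool 4 or the GFP-positive library of pool 4 or the GFP-negative library of pool 4 (adjusted p = 0.00427 to 0.0169), and adjusted p ran from 0.00427 to 0.375 over 19 alternatives. cox6c (ENSDARG00000038577), another small membrane subunit, stood at 325 to 512 TPM across pools 1 and 2, against 124 to 331 TPM across pools 3 and 4 (limma F adjusted p = 0.00535).

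Complex V had the narrowest range of differences of the 3. Of its 20 genes, 19 were called by the F test (background 12.9%), each highest in pools 1 and 2 (background 7.85%). The median log2 difference was 2.47. In the catalytic head, the beta chain gene ATP5F1B (ENSDARG00000070083), which carries most of the catalytic site, had 333 and 483 TPM in the GFP-positive and 352 and 469 TPM in the GFP-negative libraries of pools 1 and 2, against 165 and 130.1 TPM in the GFP-positive and 127 and 95.3 TPM in the GFP-negative libraries of pools 3 and 4. The libraries of the pairs of pools were well apart (log2 difference 2.73; limma F adjusted p = 0.000982). The alpha chain gene ATP5F1A (ENSDARG00000010149) had 184 and 349 TPM in the GFP-positive and 166 and 327 TPM in the GFP-negative libraries of pools 1 and 2, against 84 and 108 TPM in the GFP-positive and 152 and 77.6 TPM in the GFP-negative libraries of pools 3 and 4. Here the GFP-negative library of pool 3 came close to the GFP-negative library of pool 1 (log2 difference 2.32; limma F adjusted p = 0.00256). The gamma, delta and epsilon chains of the central stalk, ATP5F1C, ATP5F1D and atp5f1e, had log2 differences of 2.61, 2.57 and 2.60 in that order, and all were called.

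In the peripheral stalk, which keeps the head from turning, ATP5PB (ENSDARG00000011553) stood at 293 to 400.4 TPM across pools 1 and 2, against 99 to 256 TPM across pools 3 and 4 (limma F adjusted p = 0.00282). ATP5PD (ENSDARG00000098355) had 205 and 296 TPM in the GFP-positive and 218 and 215 TPM in the GFP-negative libraries of pools 1 and 2, against 36.2 and 39 TPM in the GFP-positive and 126 and 79.8 TPM in the GFP-negative libraries of pools 3 and 4. It had one of the largest differences of the complex, 2.96 (limma F adjusted p = 0.00685), together with the membrane subunit gene atp5md (ENSDARG00000096003), at a log2 difference of 2.99 (limma F adjusted p = 0.00657). With no filter on low values both calls were lost (adjusted p = 0.0533 for ATP5PD and 0.0528 for atp5md, the highest of 19 alternatives each, and 0.00416 and 0.00344 the lowest). atp5md stood at 227 to 329 TPM across pools 1 and 2, against 33.9 to 127 TPM across pools 3 and 4. ATP5PF (ENSDARG00000014313), the coupling factor of the stalk, differed less, with a log2 difference of 1.91 (limma F adjusted p = 0.0197), and stood at 95.4 to 113 TPM across pools 1 and 2, against 29.6 to 92.7 TPM across pools 3 and 4. ATP5PF lost its call on the TPM as deposited (adjusted p = 0.133), with no filter on low values (adjusted p = 0.0927) and without pool 3 or the GFP-positive library of pool 1 or 3 (adjusted p = 0.0528 to 0.0681), and adjusted p ran from 0.0141 to 0.133 over 19 alternatives. ATP5PO, which joins the stalk to the head, had a log2 difference of 2.88 (limma F adjusted p = 0.00179).

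Most membrane genes were called in the same direction. Of the 3 genes of the c ring, the rotor that protons turn, atp5mc1 (ENSDARG00000056008) stood at 188 to 239 TPM across pools 1 and 2, against 63.4 to 95.7 TPM across pools 3 and 4. atp5mc3b (ENSDARG00000009447) stood at 116 to 156 TPM across pools 1 and 2, against 25.2 to 80.3 TPM across pools 3 and 4, and ATP5MC3 (ENSDARG00000017775) at 27.2 to 39.9 TPM across pools 1 and 2, against 6.36 to 19.1 TPM across pools 3 and 4. Their log2 differences were close to each other, 2.52, 2.40 and 2.49 in that order, and each was called (limma F adjusted p = 0.00141, 0.00218 and 0.00411). ATP5MG (ENSDARG00000011841), a subunit of the dimer contact, stood at 278 to 411 TPM across pools 1 and 2, against 111 to 202 TPM across pools 3 and 4 (limma F adjusted p = 0.00352). Of the e subunit pair, atp5meb (ENSDARG00000068940) did not overlap, at 122 to 220.3 TPM across pools 1 and 2, against 39 to 100.1 TPM across pools 3 and 4, while atp5mea (ENSDARG00000078113) did, at 58.3 to 102 TPM across pools 1 and 2, against 25.4 to 89 TPM across pools 3 and 4 (limma F adjusted p = 0.0087 and 0.0134). atp5meb lost its call with no filter on low values (adjusted p = 0.0581), and adjusted p ran from 0.00522 to 0.0581 over 19 alternatives. atp5mea lost its call on the TPM as deposited (adjusted p = 0.0969), with no filter on low values (adjusted p = 0.0715) and without pool 3 or the GFP-positive library of pool 3 or the GFP-negative library of pool 3 (adjusted p = 0.0664 to 0.162), and adjusted p ran from 0.00721 to 0.162 over 19 alternatives. atp5mf (ENSDARG00000037867), the f subunit, was low and was the gene of the complex that was not called, at 6.19 to 16.6 TPM across pools 1 and 2, against 0.1 to 12.8 TPM across pools 3 and 4 (limma F adjusted p = 0.13). atp5mf was called without the GFP-negative library of pool 2 (adjusted p = 0.0415), and adjusted p ran from 0.0415 to 0.332 over 19 alternatives. atp5mj (ENSDARG00000092873), a further small membrane subunit, stood at 145 to 209 TPM across pools 1 and 2, against 29.3 to 116 TPM across pools 3 and 4 (limma F adjusted p = 0.0104). atp5mj lost its call with no filter on low values (adjusted p = 0.0652), and adjusted p ran from 0.00548 to 0.0652 over 19 alternatives.

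The symbol rule also took in the genes of the inhibitor IF1, a small protein that stops complex V from running backwards. atp5if1b (ENSDARG00000044092) had 177 and 243 TPM in the GFP-positive and 293 and 232 TPM in the GFP-negative libraries of pools 1 and 2, against 52.7 and 60.5 TPM in the GFP-positive and 63.6 and 94 TPM in the GFP-negative libraries of pools 3 and 4. It did not overlap (log2 difference 2.87; limma F adjusted p = 0.00114). atp5if1a (ENSDARG00000067975) had 95.9 and 149.8 TPM in the GFP-positive and 111 and 109 TPM in the GFP-negative libraries of pools 1 and 2, against 61.5 and 46.2 TPM in the GFP-positive and 149.9 and 85.2 TPM in the GFP-negative libraries of pools 3 and 4. It overlapped and had the smallest difference of the 20 genes, 1.63 (limma F adjusted p = 0.0427). atp5if1a lost its call on the TPM as deposited (adjusted p = 0.269), with no filter on low values (adjusted p = 0.157), with a pseudocount of 0.1 (adjusted p = 0.0658) and without pool 1, 3 or 4 or the GFP-positive library of pool 1, 3 or 4 or the GFP-negative library of pool 1 or 4 (adjusted p = 0.0589 to 0.12), and adjusted p ran from 0.0171 to 0.269 over 19 alternatives. The share of atp5if1a in the pair was 27.6% to 38.1% across pools 1 and 2, against 43.3% to 70.2% across pools 3 and 4, without overlap.

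Summed over its genes, each complex was higher in pools 1 and 2, and complex V made up more and complex IV less of the sum there. As a percentage of a library's TPM, the 47 genes together came to 0.658% to 0.872% across pools 1 and 2, against 0.271% to 0.473% across pools 3 and 4. In TPM, complex III summed to 988 to 1203 across pools 1 and 2, against 430.1 to 712 across pools 3 and 4. Complex IV summed to 2400.5 to 3039 across pools 1 and 2, against 1059 to 2054 across pools 3 and 4, and complex V to 3173 to 4480.2 across pools 1 and 2, against 1178 to 1963 across pools 3 and 4. Of the TPM of all 47 genes, complex IV gave 34.8% to 37.5% across pools 1 and 2, against 39% to 43.4% across pools 3 and 4. Complex V gave 47.9% to 51.4% across pools 1 and 2, against 41.5% to 45.6% across pools 3 and 4. Neither share overlapped between the pairs of pools. The share of complex III was 13.5% to 15.3% across pools 1 and 2, against 12.7% to 18.2% across pools 3 and 4, and overlapped. In pool 3 the genes summed to 2714 TPM in the GFP-positive and 4729 TPM in the GFP-negative library, which was the highest sum in pools 3 and 4. The median member ranked at the 97.3 to 97.7 percentile of the genes tested in pools 1 and 2 and at the 86.1 to 94.1 percentile in pools 3 and 4.

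The subunits of the same complexes that are encoded in mitochondrial DNA had a higher median difference than the nuclear ones. MT-CYB, the cytochrome b of complex III, stood at 12520.3 to 17078 TPM across pools 1 and 2, against 2273 to 7051 TPM across pools 3 and 4. MT-CO1, the catalytic subunit of complex IV, stood at 14640.2 to 21544 TPM across pools 1 and 2, against 2604 to 7143 TPM across pools 3 and 4, and MT-ATP6, the proton channel subunit of complex V, at 7793 to 11406 TPM across pools 1 and 2, against 1716 to 3498 TPM across pools 3 and 4. None of the 6 overlapped in TPM, with pools 1 and 2 higher (background 6.26%). All 6 were called by the F test (background 12.9%), highest in pools 1 and 2 (background 7.85%). Their median log2 difference was 3.17, against 2.40 for the nuclear genes, whose highest single differences went beyond them. The ratio of mitochondrially encoded to nuclear TPM was 8.82 to 14.8 across pools 1 and 2, against 4.15 to 7.48 across pools 3 and 4. For complex III alone the ratio was 10.8 to 17 across pools 1 and 2, against 5.28 to 9.9 across pools 3 and 4. For complex IV it was 12.1 to 21.7 across pools 1 and 2, against 5.42 to 9.82 across pools 3 and 4, and for complex V 5.66 to 8.8 across pools 1 and 2, against 2.66 to 4.49 across pools 3 and 4. In none of the 3 did the pairs of pools overlap. The highest ratio, 14.8, was that of the GFP-positive library of pool 1, whose GFP-negative partner had 9.52.

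**Figure D3:**
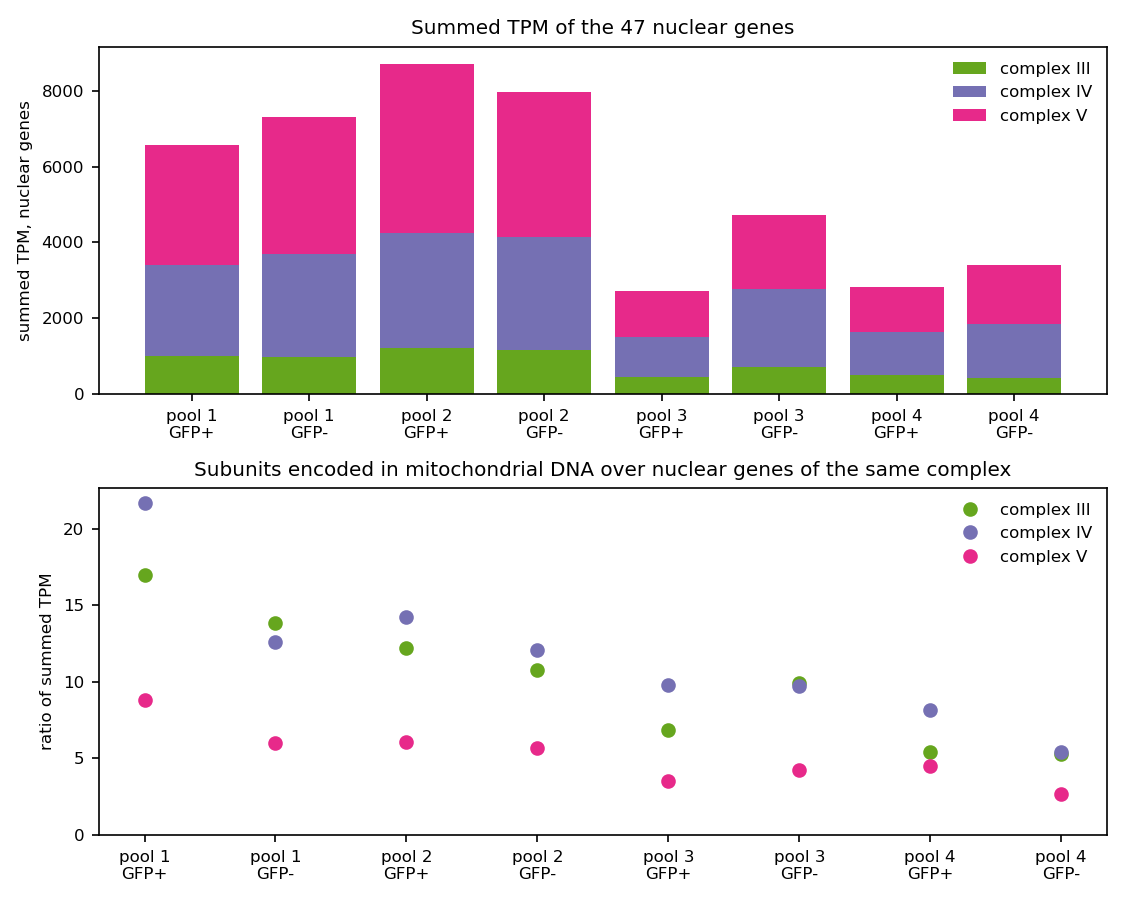
Top, summed TPM of the nuclear genes of each complex (stacked bars) in the 8 libraries; bottom, summed TPM of the subunits encoded in mitochondrial DNA over that of the nuclear genes of the same complex (points). In TPM the sums over all genes were 6581 to 8722 across pools 1 and 2, against 2714 to 4729 across pools 3 and 4, and the ratio was higher in pools 1 and 2 for each complex.

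The partners of these complexes were read from lists of known genes. cycsb, encoding cytochrome c, the carrier between complexes III and IV, stood at 334 to 397 TPM across pools 1 and 2, against 106 to 225 TPM across pools 3 and 4 (limma F adjusted p = 0.00165). NDUFA4, a subunit now counted with complex IV, stood at 357 to 474 TPM across pools 1 and 2, against 168 to 460.2 TPM across pools 3 and 4, and its relative ndufa4b at 158 to 269 TPM across pools 1 and 2, against 19.9 to 36 TPM across pools 3 and 4. ndufa4b did not overlap (limma F adjusted p = 0.0112 for NDUFA4 and 0.000704 for ndufa4b). Assembly factors, which build the complexes but are not part of them, were also listed. Of 40 tested, 9 were called (background 12.9%), 8 of them highest in pools 1 and 2 (background 7.85%), with a median log2 difference of 1.42 for the complex III, 0.91 for the complex IV and 1.73 for the complex V list. The copper chaperone gene cox17, which supplies complex IV, stood at 60.1 to 72.5 TPM across pools 1 and 2, against 0.82 to 37.1 TPM across pools 3 and 4 (limma F adjusted p = 0.00524). coa6, another factor of copper delivery, stood at 35.8 to 57.4 TPM across pools 1 and 2, against 6.91 to 23.6 TPM across pools 3 and 4 (limma F adjusted p = 0.00283). higd1a, a factor of complex IV known to respond to low oxygen in mammals, had 89.9 to 109 TPM across pools 1 and 2, against 123 to 239 TPM across pools 3 and 4, higher in TPM in every library of pools 3 and 4. After scaling, every library of pools 1 and 2 was the higher, so its direction turns with the scaling (log2 difference 0.29 scaled and -0.78 as deposited), and it was not called (limma F adjusted p = 0.441).

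Nuclear genes of complex I, which passes electrons to ubiquinone, had a median log2 difference of 2.37. Of 37 tested, 29 were called (background 12.9%), all highest in pools 1 and 2 (background 7.85%). Genes of the mitochondrial ribosome had a median of 1.23, and 13 of 67 were called, all 13 highest in pools 1 and 2, read against the same backgrounds. The ratio of the summed TPM of complexes III, IV and V to that of nuclear complex I genes was 4.18 to 4.79 across pools 1 and 2, against 3.73 to 5.81 across pools 3 and 4, and overlapped. The plot of differences by gene group sets these lists side by side.

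**Figure D4:**
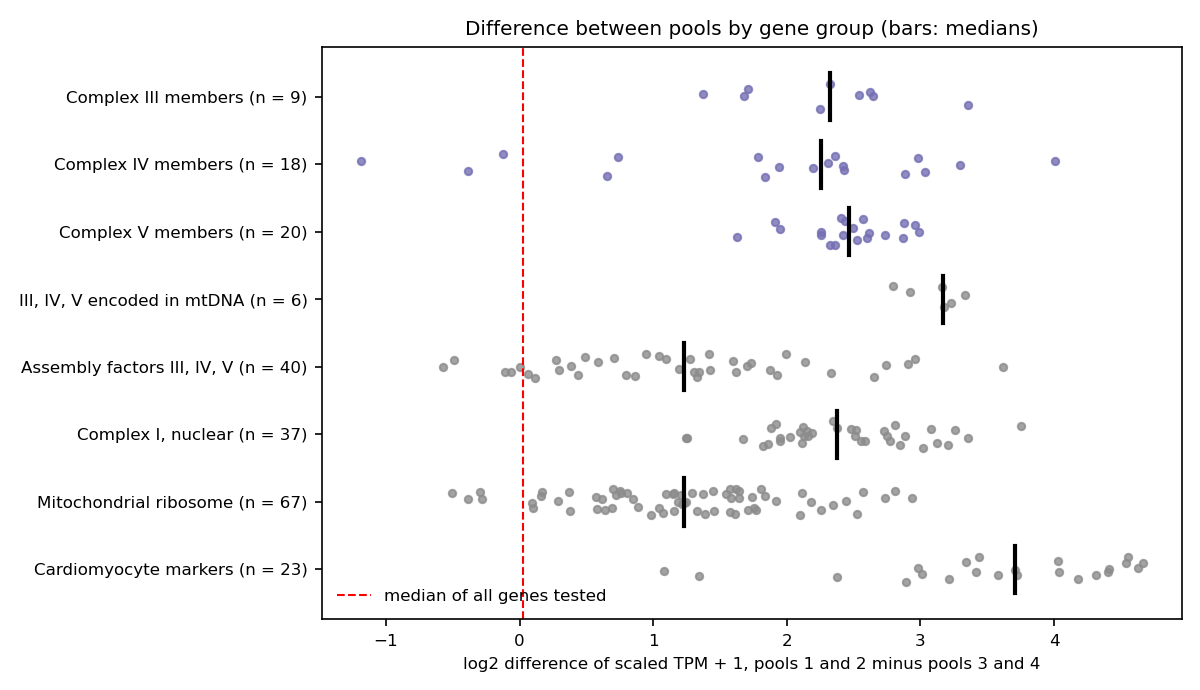
Log2 difference of scaled TPM + 1, pools 1 and 2 minus pools 3 and 4, for each tested gene of 8 groups (points; vertical places within a row are random), with the median of each group (bar) and of all genes tested (dashed line). Medians were 2.32, 2.25 and 2.47 for complexes III, IV and V, and 3.71 for the cardiomyocyte markers.

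Between the labelled sorts, the comparison named in the series title, no gene of complexes III, IV or V passed the threshold. With pool as a block, limma called 0 of 47 genes (background 0%). Without adjustment 4 passed (unadjusted p under 0.05), where the background was 5.55%. The log2 difference, GFP-positive minus GFP-negative, was positive for 17 genes and negative for 30, with a median of -0.20, against 0.01 over all genes tested. It ran from -1.02 for COX5A to 1.91 for cox8a. In single pools the difference of COX5A ran from -3.04 in pool 4 to 0.35 in pool 1. Adjusted p-values of limma ran from 0.853 to 0.994. The summed TPM averaged 5210.4 ± 2952 (SD, n = 4) in the GFP-positive and 5853 ± 2154 (SD, n = 4) in the GFP-negative libraries, and the paired difference, GFP-positive minus GFP-negative, was -643 ± 1129.7 TPM (SD over 4 pools), smaller than its SD. The GFP-positive library had the higher sum in 1 of 4 pools.

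The pools did not share a direction. Counts and log2 differences by pool are on scaled values. In pool 1, 31 of 47 genes were higher in the GFP-positive library (background 52.9% of all genes), with a median log2 difference of 0.11. As deposited, most of the 47 genes were lower in the GFP-positive library of pool 1. Their median TPM was 116 there, against 132 in the GFP-negative library, so the direction in pool 1 turned with the scaling. In pool 2 the count was 42 (background 47.9%) and the median 0.44. In pools 3 and 4 most genes were lower in the GFP-positive library, with 10 higher in pool 3 (background 49.7%) and 16 in pool 4 (background 48.8%). The medians there were -0.63 and -0.41. Complex III departed from the others in pool 4, where its median was 0.41 with 6 of 9 genes higher, against -0.53 for complex IV and -0.52 for complex V. The 6 subunits encoded in mitochondrial DNA had medians of 0.67, 0.47, -0.82 and 0.27 in pools 1 to 4. Cardiomyocyte markers had medians of 0.00, 0.30, -0.92 and -0.11, and their part in the pool 3 values was not tested. Without pool 3 the median over the 47 genes turned to 0.04.

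**Figure D5:**
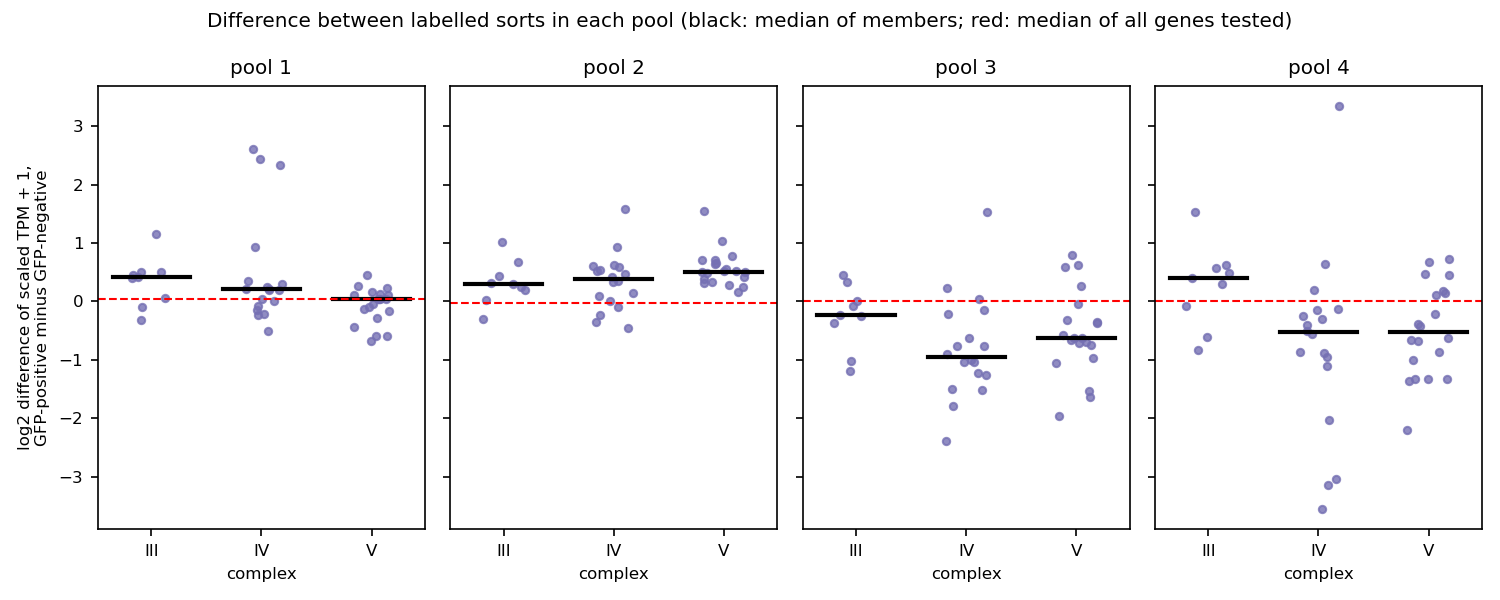
Log2 difference of scaled TPM + 1, GFP-positive minus GFP-negative, for each gene by complex in each of the 4 pools (points, horizontal places within a column are random), with the median of the genes (black bar) and of all genes tested (dashed line). Medians lie on the line for complex V in pool 1, above it for the others in pools 1 and 2, and below it in pools 3 and 4 except for complex III in pool 4.

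Single genes with the largest differences between sorts in each complex did not pass either. The accessory subunit gene UQCR10 had a log2 difference of 0.48 (SE 0.30; limma adjusted p = 0.863), which was 0.75 without pool 3 and 0.10 without pool 4. cox8a had 10.2, 5.78, 8.37 and 23.5 TPM in the GFP-positive libraries of pools 1 to 4, against 1.27, 6.11, 2.13 and 1.23 TPM in the GFP-negative libraries. The GFP-positive library was the higher one in 3 of 4 pools as deposited and in 4 of 4 after scaling, at a log2 difference of 1.91 (SE 0.53; limma adjusted p = 0.853). That difference was 1.39 to 2.54 when leaving out a pool, and 1.13 with a pseudocount of 5. In complex V atp5mf had 10.03, 16.6, 1.64 and 0.1 TPM in the GFP-positive libraries of pools 1 to 4, against 11.4, 6.19, 12.8 and 4.79 TPM in the GFP-negative libraries. The GFP-positive libraries of pools 3 and 4 held the lowest values, at a log2 difference of -0.66 (SE 0.62; limma adjusted p = 0.889). That difference was -0.95 without pool 1, -1.45 without pool 2, -0.19 without pool 3 and -0.17 without pool 4, and it was -1.38 with a pseudocount of 0.1 and -0.16 with 5. The gamma chain gene ATP5F1C was named after its values were seen, as were cox4i1l and COX7A2L, because each had an unadjusted p under 0.05. ATP5F1C had 232, 238, 102 and 87.8 TPM in the GFP-positive libraries of pools 1 to 4, against 186, 238, 67.2 and 54.5 TPM in the GFP-negative libraries. It was higher in the GFP-positive library in 4 of 4 pools after scaling, at a log2 difference of 0.54 (SE 0.17; limma adjusted p = 0.853). cox4i1l and COX7A2L were higher in 0 of 4 pools each. The log2 difference was -0.49 (SE 0.19; limma adjusted p = 0.853) for cox4i1l and -0.68 (SE 0.24; limma adjusted p = 0.853) for COX7A2L.

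After scaling, 6 of the 47 genes were higher in the GFP-positive library in 4 of 4 pools (background 7.15%) and 2 in 0 of 4 (background 7.03%). Of these 6, only UQCRC2 and ATP5F1C were also higher in 4 of 4 pools in the TPM as deposited. COX4I2, cox8a, ATP5F1B and ATP5PO were each lower in the GFP-positive library of a pool there. The share of COX4I2 in its family averaged 5.97% ± 5.46 (SD, n = 4) in the GFP-positive and 4.06% ± 3.81 (SD, n = 4) in the GFP-negative libraries. It was higher in the GFP-positive library in 4 of 4 pools (exact sign-flip permutation test over pools, two-sided p = 0.125, the smallest that 4 pairs allow). For the COX5B gene ENSDARG00000015978 the same share was higher in 3 of 4 pools (exact two-sided p = 0.5). These 2 shares were picked for their pattern among pools, out of 25 gene shares computed in 11 families. The share of complex IV in the summed TPM was lower in the GFP-positive library in every pool, with a mean difference of -2.37 ± 1.58 percentage points (SD, n = 4), a description without a test.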

How the data were processed

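The tools named in the submitters' processing notes are CASAVA 1.8.2, cutadapt, RSEM 1.2.25 and the genome build Zv9; the cutadapt version, the aligner and the annotation are not given in the sources used here. Per the labels' protocols, 0.2 to 0.6 ng of total RNA went through 2 rounds of amplification and was sequenced as single reads of 60 bases. That text also speaks of mCherry-positive cells and of another kit, while titles and characteristics name GFP alone and were followed. The deposited values are TPM (columns total 1000000 within rounding). Gene symbols were found for 25925 of 31388 identifiers, many of them human-style and lacking the letter that tells paralogs apart.

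A trimmed mean of log ratios, unweighted, set the library scale; 30% of the ratios and 5% of the abundances were trimmed from either end. Tests covered the 13877 genes that reached 1 TPM in 4 or more libraries (3 or more where a pool was left out). limma 3.58.1 in R 4.3.3 was fitted to log2(scaled TPM + 1) with a mean-variance trend and terms for pool and labelled sort. Pairs follow the pool label and the series design, which calls the replicates paired. As a check, deviations from the sort means correlated at 0.403 to 0.537 within a pool, but at up to 0.552 between pools 1 and 2. No library repeated another (highest correlation 0.928). Sums and shares were computed in Python 3.11.15 with pandas 2.3.3. The limma fit, and not the sums and shares, was tested on simulated data. Those had independent noise in each library and fewer genes changed among pools than were called here.

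Members, partner and marker lists (187 of 200 entries matched to an identifier) and tests were chosen with earlier results of these data known. Genes named by rule were, per complex, the 3 most abundant, those with the 2 most and 2 least positive differences between pools and the one with the largest difference between sorts, then isoform and paralog families, catalytic subunits and subunits encoded in mitochondrial DNA; the rest were added to complete each complex. Alternatives were the median of ratios and the TPM as deposited, pseudocounts of 0.1 and 5, no filter, a filter of 5 TPM, no replicate block, and leaving out each pool or library. With no replicate block, the test between sorts dropped pool, and the F test among pools dropped the labelled sort.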

Additional observations from a re-analysis of the deposited data

How the results depend on the processing

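Over all genes, the F test among pools called 1787 genes, 4007 with the TPM as deposited, 884 with no filter on low values and 948 to 1408 over the fits that leave out a pool or a library; the cause was not tested. Of the 47 genes of complexes III, IV and V it called 40, 30 with the TPM as deposited, 27 with no filter and 37 with a pseudocount of 0.1. It called 41 with no term for the labelled sort and 34 to 39 when leaving out a pool or a library. Their median log2 difference between pools was 2.40, 1.34 with the TPM as deposited and 2.28 to 2.46 when leaving out a pool or a library. Of the 47 genes, 25 kept their direction and their side of the threshold under every alternative run, 19 for each gene but COX7A2, which had 18 because the filter of 5 TPM removed it. Those that turned direction were all uncalled: COX5B ENSDARG00000015978 (-0.13; -0.34 to 0.0655 when leaving out a pool or a library), cox6a1 ENSDARG00000022438 (-0.38; -1.15 to 0.41) and cox8a (0.74; -0.10 with the TPM as deposited).

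Between the labelled sorts, limma called 0 genes over all genes, also with no replicate block, and 0 to 3 with a pool left out, none of them in complexes III, IV or V. The median of the 47 genes was -0.20 and ran from -0.38 to 0.04 with a pool left out. Dropping the labelled sort from the F test among pools changed 1 call, uqcrc2a, called at limma F adjusted p = 0.0446 without that term. Shares of isoforms do not depend on scaling, pseudocount or filter; leaving out a pool or a library was added for them after the data were seen. Depth is unknown, so values near 0 cannot be told from missed transcripts.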

Other observations

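Transcription regulators of mitochondrial genes and of the response to low oxygen were read from a further list. Of 22 tested, the F test of limma called 7 (background 12.9%), 6 highest in pools 1 and 2 (background 7.85%) and 1 in pools 3 and 4 (background 4.55%). PPARGC1A, a coactivator known to drive mitochondrial gene expression, stood at 4.69 to 12.4 TPM across pools 1 and 2, against 0.12 to 3.17 TPM across pools 3 and 4 (limma F adjusted p = 0.0229). In TPM its libraries did not overlap between the pairs of pools, with pools 1 and 2 higher (background 6.26%). PPARA, a regulator of fatty acid use, stood at 5.14 to 20.7 TPM across pools 1 and 2, against 2.23 to 10.04 TPM across pools 3 and 4 (limma F adjusted p = 0.02). 1 of 2 genes listed as EPAS1 (ENSDARG00000057671), an oxygen-regulated factor abundant in endothelium, stood at 59 to 92 TPM across pools 1 and 2, against 3.01 to 7.57 TPM across pools 3 and 4 (limma F adjusted p = 0.000982). NRF1, a factor whose known targets include respiratory chain genes, was not called (limma F adjusted p = 0.343). It stood at 3.12 to 7.51 TPM across pools 1 and 2, against 8.07 to 20.9 TPM across pools 3 and 4. In TPM the NRF1 libraries did not overlap, with pools 3 and 4 higher (background 33.4%). Of the 22 genes, 5 lay higher without overlap in TPM in pools 1 and 2 (background 6.26%), and 4 in pools 3 and 4 (background 33.4%). After scaling the counts were 6 (background 14.5%) and 1 (background 12.1%) in that order. TFAM, which maintains mitochondrial DNA, was not called either, at 3.03 to 7.04 TPM across pools 1 and 2, against 1.35 to 15.8 TPM across pools 3 and 4 (limma F adjusted p = 0.367). hif1al, named for its likeness to the hypoxia factor, was the gene called highest in pools 3 and 4, at 11.7 to 18.1 TPM across pools 1 and 2, against 60.5 to 136 TPM across pools 3 and 4 (limma F adjusted p = 0.0171).

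Of 13 genes of the outer membrane, protein import and carriers, the F test called 4 (background 12.9%), all 4 highest in pools 1 and 2 (background 7.85%), and the median log2 difference was 0.76.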
